A study of Mus musculus with 24 samples.

Results

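Acta1, Acta2, Actg2, Tagln, Cnn1, Myl9, Tpm1, Tpm2 and Flnc are 9 genes of the contractile apparatus, 9 of the 24016 genes in the deposited gene table, taken by the gene symbol that each row carries. They were selected on their RNA levels in the libraries described here. Fits and p-values on those levels therefore describe the 9 genes and do not test them as a set. The other gene lists were also chosen with results of these data known, so the same limit holds for them. Counts of the 9 genes that pass a threshold are set beside the share of all genes that pass it. Allele shares, acetylation peaks and promoter sequence did not enter the choice. All 9 genes passed the filter on low values.

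Smooth muscle cells contract by sliding myosin along thin filaments of actin. Tropomyosin and calponin lie along the thin filament, the regulatory light chain switches the myosin motor, and filamin ties the filaments to the membrane and to each other. Many of these genes share control by serum response factor (SRF) and its partners of the myocardin family, which bind a promoter element called the CArG box. Several are also used outside smooth muscle, in fibroblasts that have taken on a contractile state, in early heart and skeletal muscle and, at a low level, in most adherent cells.

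The cells were female mouse embryonic stem cells of the line 16.7 Tsix +/TST, a hybrid line whose mus and cas alleles can be told apart in reads. The parental line (WT) was compared with a knockout of G9a (Ehmt2), an enzyme that methylates histone H3 at lysine 9, made in that line (KO). Both carry the +/TST Tsix genotype and were taken undifferentiated on day 0 or on day 10 of differentiation without LIF, with 4 days in suspension and 6 days on gelatin. Total RNA depleted of ribosomal RNA was sequenced in 3 libraries per line and day, 12 in all, and acetylation of histone H3 at lysine 9 (H3K9ac), which marks promoters in use, was mapped by ChIP in 1 sample per line and day. The knockout rests on 1 parental line, and the labels do not say how many clones it stands for or whether libraries came from separate cultures, so p-values measure only the spread between these libraries, which may be technical.

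Levels are reads per gene that the authors scaled to a common total, called scaled reads below. Recovered reads per library ran from 2081129 to 4220140 in 9 libraries and from 21087157 to 30527844 in WT day 0 replicate 3 and KO day 0 replicates 2 and 3. Rn45s, the ribosomal RNA precursor, took 14.8% to 25.1% of reads in those 9 libraries and 0.115% to 0.129% in the 3 deep ones, so depth and ribosomal share cannot be told apart. Ehmt2 had 987 to 1375 scaled reads in WT and 375 to 557 in KO at day 0, and 719 to 1359 in WT and 499.8 to 758 in KO at day 10. The day 10 ranges overlap through WT replicate 3, and the table counts reads over the whole gene. That library and KO day 0 replicate 1 also held 1093 and 1072 CPM in olfactory and vomeronasal receptor genes, which these cells should not use, against 31.1 to 377 in the other 10. In the first day 0 library of each line fibroblast genes were high. Of 16 fibroblast markers, 13 in WT and 15 in KO were above both other replicates there. Their summed level was 25716 against 8421 and 9198 in WT and 13167 against 9499 and 9459 in KO. Fn1 alone held 15106, 6864 and 7787 of these sums in WT and 8920, 8202 and 8209 in KO. Other lists were mixed. Replicate 1 was above both others in 14 of 22 genes of SRF and TGF-beta control in WT and 13 in KO. For 24 striated muscle markers this held in 7 and 19, and for 19 nonmuscle counterparts of contractile genes in 6 and 2. It held in 0 and 3 of 10 markers of epithelium and trophoblast, and in 6 and 5 of the 9 genes. With 3 replicates each library leads some genes without any excess, and the share over all genes was not counted. Day 0 values are also given without the first day 0 library of each line where that moves them.

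Promoters are shown for the 3 genes whose day 10 levels separated KO from WT (Acta1, Acta2 and Myl9) and for Tpm1, the gene with the highest level per kilobase at day 0. Each sequence is the 250 bases before the start in RefSeq, build GRCm38.p6, printed 5′ to 3′ on the strand of the gene. Capitals mark CArG boxes (CC, 6 bases of A or T, GG), boxes in which 1 of the 6 inner bases is C or G, the TATA-like run TATATAA and the MCAT core CATTCC or, read on the other strand, GGAATG, wherever they were found.
Acta1, chr8:123894776-123895025, minus strand: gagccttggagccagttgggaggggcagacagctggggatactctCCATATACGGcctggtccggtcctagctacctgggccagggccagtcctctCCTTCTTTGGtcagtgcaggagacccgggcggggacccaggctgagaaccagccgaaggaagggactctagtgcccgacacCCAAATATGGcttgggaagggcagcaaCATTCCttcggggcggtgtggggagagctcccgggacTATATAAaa
Acta2, chr19:34255374-34255623, minus strand: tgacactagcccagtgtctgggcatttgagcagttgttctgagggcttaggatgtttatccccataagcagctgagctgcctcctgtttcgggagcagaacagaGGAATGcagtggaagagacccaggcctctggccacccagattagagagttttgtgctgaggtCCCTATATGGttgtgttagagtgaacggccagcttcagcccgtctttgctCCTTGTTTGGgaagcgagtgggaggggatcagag
Myl9, chr2:156775214-156775463, plus strand: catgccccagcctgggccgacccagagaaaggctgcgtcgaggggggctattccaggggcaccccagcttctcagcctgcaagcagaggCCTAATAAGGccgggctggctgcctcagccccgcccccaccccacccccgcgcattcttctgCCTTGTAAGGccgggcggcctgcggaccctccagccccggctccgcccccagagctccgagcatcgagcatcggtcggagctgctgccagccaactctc
Tpm1, chr9:67049214-67049463, minus strand: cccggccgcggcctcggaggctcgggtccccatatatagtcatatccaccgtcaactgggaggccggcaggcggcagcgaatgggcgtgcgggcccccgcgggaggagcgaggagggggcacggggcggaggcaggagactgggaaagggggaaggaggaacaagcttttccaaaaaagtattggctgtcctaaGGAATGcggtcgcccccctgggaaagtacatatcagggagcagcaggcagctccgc

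A full CArG box, on either strand, was found in Acta1 from 73 to 64 bases before the start and in Myl9 from 161 to 152 bases before it. It was found in 1.47% of the 32851 promoter windows of that length. Boxes with 1 inner base changed to C or G were found in Acta1, Acta2, Myl9 and Flnc, and in 7.24% of windows. Boxes changed in the outer CC or GG were not searched for. Acta2 held 2 boxes with an inner change, CCCTATATGG from 84 to 75 bases and CCTTGTTTGG from 34 to 25 bases before the start. TATATAA was found in Acta1 and in 3.04% of windows, while CATTCC was found in Acta1, Acta2, Tpm1 and Flnc and in 12.6% of windows. The windows of Cnn1 and Tpm2 held none of the 4 motifs, which says only that these letters are not in these 250 bases. The promoter table had windows for 7 of the 9 genes, not for Actg2 and Tagln, and spans of some genes differ slightly between RefSeq and the deposited table, so starts may differ too. A match describes letters and was not tested as a binding site.

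Of the 3 muscle actin genes, the KO libraries of day 10 exceeded the WT libraries in Acta1 and Acta2 and overlapped with them in Actg2. Acta1, the skeletal muscle actin gene (mm9, chromosome 8, 126415658 to 126418675), was almost unread in stem cells. It had 0, 0 and 3.70 scaled reads in WT day 0 replicates 1 to 3 and 0, 4.56 and 2.06 in KO. Day 10 levels were 445, 199.7 and 138 in WT, against 528, 887 and 1036 in KO. Every day 10 library lay far above every day 0 library, and the 3 KO libraries lay above the 3 WT libraries, with means of 817 ± 261 and 261 ± 162 (SD, n = 3 each) and a ratio of 3.13. With so few reads at day 0 the fitted log2 rise depends on the value of 1 added before the logarithm. It was 7.11 (SE 0.81) in WT and 8.26 (SE 0.81) in KO.

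Acta2, the smooth muscle alpha-actin gene (chromosome 19, 34314826 to 34329863), is the textbook marker of smooth muscle and of contractile fibroblasts. Stem cells had 219, 16.7 and 27.9 scaled reads in WT, with 165, 76.2 and 70.5 in KO. The first library of each line was the highest. By day 10 the WT libraries held 401, 356 and 178, and the KO libraries 627, 3283 and 3042. The KO libraries lay above all WT libraries, but replicate 1 sat close to WT and replicates 2 and 3 far above it. The means were 2317 ± 1469 in KO and 312 ± 118 in WT (SD, n = 3 each), a ratio of 7.43 and a fitted log2 difference of 2.64 (SE 0.82). Leaving out 1 day 10 library at a time moved that difference between 2.23 and 3.42.

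Actg2, the smooth muscle gamma-actin gene of gut and bladder (chromosome 6, 83462903 to 83486245), was low in all libraries. It had 56.6, 20.9 and 7.12 scaled reads in WT at day 0, with 84.1, 14.3 and 22.3 in KO. Day 10 gave 9.26, 8.24 and 28.7 in WT, against 19.8, 21.9 and 35.1 in KO. Groups overlapped in all comparisons, and without the 2 first day 0 libraries its mean was 14.0 in WT at day 0 against 15.4 at day 10. Beyond smooth muscle, the cytoplasmic actin gene Actb had 13295 to 21920 at day 0, 17637 to 27896 in WT at day 10 and 31156 to 35998 in KO at day 10. Actc1, the cardiac actin gene, had 27.8, 4.12 and 0 in WT at day 10, against 87.3, 211 and 154 in KO. Its fitted log2 rise from day 0 in KO was 4.90 (SE 1.16, limma with Benjamini-Hochberg adjustment, adjusted p = 0.0257).

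The calponin family was measured through Tagln and Cnn1. Tagln (SM22-alpha, chromosome 9, 45737711 to 45744141), an actin-binding protein and a classical SRF target, had 117, 29.2 and 28.2 scaled reads in WT at day 0, with 74.7, 55.4 and 55.6 in KO. The WT libraries of day 10 held 1179.6, 714 and 589, those of KO 809, 1839.96 and 1475. Day 10 lay above day 0 without overlap in both lines, by a log2 change of 4.08 (SE 0.51) in WT and 4.38 (SE 0.51) in KO, while the lines overlapped on each day.

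Cnn1 (calponin 1, chromosome 9, 21903697 to 21913665), which restrains the myosin motor on actin, had 24.8, 45.9 and 28.2 scaled reads in WT at day 0, with 6.23, 20.5 and 18.5 in KO. The KO libraries lay below the WT libraries there, at 0.458 of the WT mean, a pattern that 4.98% of 20624 genes showed. KO replicate 1 rests on 2 recovered reads. After differentiation it had 55.6, 111 and 66.1 in WT, against 95.2, 178 and 151 in KO, and the lines overlapped. The fitted rise from day 0 was 1.20 (SE 0.57) in WT and 3.25 (SE 0.57) in KO.

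Myl9, the regulatory light chain of smooth muscle and nonmuscle myosin (chromosome 2, 156601200 to 156607393), resembled Acta2 at day 10. It had 35.4, 16.7 and 12.8 scaled reads in WT at day 0, with 18.7, 21.5 and 18.9 in KO. By day 10 it stood at 102, 78.2 and 28.7 in WT, with 151, 537 and 467 in KO. KO lay above WT without overlap, with means of 385 ± 206 and 69.6 ± 37.3 (SD, n = 3 each), a ratio of 5.52 and a fitted log2 difference of 2.43 (SE 0.63). As for Acta2, KO replicate 1 was the lowest KO library and WT replicate 3, the library with many receptor-gene reads, the lowest of all. Without that WT library the difference was 1.90, and it was 2.28 for Acta2 and 1.39 for Acta1.

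The tropomyosins and filamin C lay higher at day 10 than at day 0 in both lines, and the lines overlapped at day 10. Tpm1, the alpha-tropomyosin gene (chromosome 9, 66870400 to 66897020), had 1019, 956 and 1055 scaled reads in WT at day 0, with 539, 1161 and 1148 in KO. Its day 10 levels were 10162, 9492 and 6904 in WT, with 6276, 8181 and 7071 in KO. The difference between the lines at day 10 was -0.29 on the log2 scale (SE 0.31), and the lines overlapped.

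Tpm2, the beta-tropomyosin gene (chromosome 4, 43526598 to 43536426), had 212, 96.0 and 139 scaled reads in WT at day 0, with 109, 68.7 and 76.6 in KO. On day 10 it reached 701, 500.3 and 224 in WT, with 325, 632 and 445 in KO. Its means at day 10 were 475 ± 239 and 468 ± 155 (SD, n = 3 each), well within the spread.

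Flnc, the muscle filamin that crosslinks actin and anchors it (chromosome 6, 29383153 to 29411888), had 492, 397 and 285 scaled reads in WT at day 0, with 386, 121 and 116 in KO. The day 10 libraries gave 4586, 4386 and 1742 in WT, against 2705, 3488 and 3654 in KO. Without the 2 first day 0 libraries the day 0 means were 341 in WT and 118 in KO, a ratio of 0.348, while at day 10 the lines overlapped with a log2 difference of -0.01 (SE 0.46), which turned to 0.07 and 0.13 under RLE and TMM scaling.

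**Figure D1:**
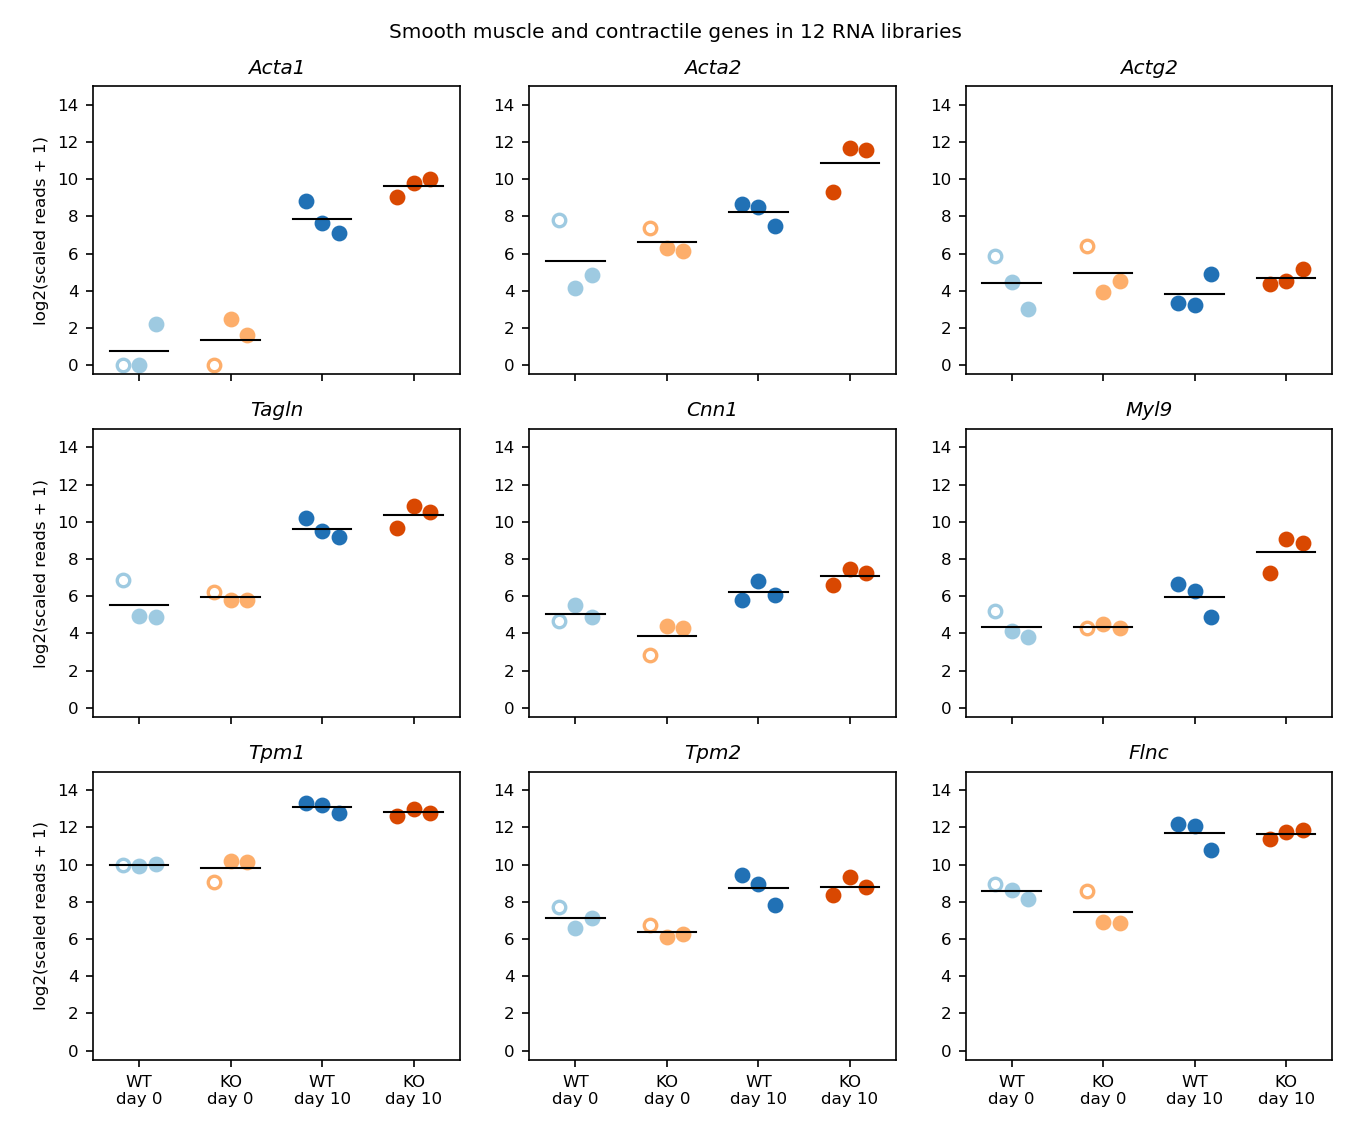
Level of each gene as log2 of scaled reads plus 1 (vertical axis) in the 3 RNA libraries of each line and day (horizontal axis); points are libraries in the order of replicates 1 to 3, open points are the first day 0 library of each line, bars are means of the log2 values. Acta1, Acta2 and Myl9 separate KO from WT at day 10, Tpm1, Tpm2 and Flnc overlap there, and Actg2 overlaps in all groups.

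Per kilobase of genomic span, introns included, the order of the genes differed between the lines at day 10. In WT Tpm1 led with a median of 357 scaled reads per kilobase, followed by Flnc (153), Tagln (111), Acta1 (66.2), Tpm2 (50.9), Acta2 (23.7), Myl9 (12.6), Cnn1 (6.63) and Actg2 (0.397). Only the steps from Tpm1 to Flnc and from Cnn1 to Actg2 had ranges that did not overlap. In KO the order was Acta1 (294), Tpm1 (266), Tagln (229), Acta2 (202), Flnc (121), Myl9 (75.3), Tpm2 (45.3), Cnn1 (15.1) and Actg2 (0.938). There the ranges of neighbours overlapped except at the steps from Flnc to Myl9, from Tpm2 to Cnn1 and from Cnn1 to Actg2. At day 0 Tpm1 led in both lines, with medians of 38.3 in WT and 43.1 in KO, and Acta1 was last, with 0 and 0.683. The genes differ in the share of introns in their span, which this scale does not correct.

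Between KO and WT at day 10, 7 of the 9 genes had fitted differences above 0, with a median of 0.87 beside -0.26 over all 20624 genes tested. Acta1, Acta2 and Myl9 were the 3 genes with KO above WT without overlap, as were 5.54% of all genes. By limma with Benjamini-Hochberg adjustment 0 of 9 passed, beside 0% of all genes, and 3 of 9 had an unadjusted p under 0.05, beside 11.9% of all genes. edgeR on recovered reads called 0 of 9, beside 0% of all genes. It gave 3 an unadjusted p under 0.05, beside 2074 of 14884 genes. DESeq2 called 2 (Acta2 and Myl9), beside 2.43% of all genes, and gave 4 an unadjusted p under 0.05, beside 3314 of 22589. At day 0 the median difference was -0.0033 beside 0.17 over all genes, with 4 of 9 above 0. There 0 of 9 passed by limma and by edgeR (0% of all genes each) and by DESeq2 (0.0708% of all genes). In these 3 tools 1, 0 and 0 of 9 had an unadjusted p under 0.05. Over all genes this held for 3.82% in limma, 601 of 14884 in edgeR and 915 of 22589 in DESeq2. The largest fitted day 0 differences were -1.18 (SE 0.57) in Cnn1, -1.11 (SE 0.46) in Flnc and 1.01 (SE 0.82) in Acta2. Without the 2 first day 0 libraries the order changed. The largest differences were then 1.72 (SE 0.67) in Acta2 and -1.50 (SE 0.41) in Flnc. Acta1 stood at 0.93 (SE 0.78), Tagln at 0.93 (SE 0.42) and Cnn1 at -0.85 (SE 0.56). The median was 0.44 beside 0.12 over all genes, 0 of 9 passed by limma, and 3 of 9 had an unadjusted p under 0.05, beside 6.77% of all genes. In bulk RNA, fewer cells of a type and less RNA per cell cannot be told apart.

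From day 0 to day 10 the median log2 change was 2.61 in WT and 4.03 in KO, beside -0.20 and -0.68 over all genes. All 3 day 10 libraries lay above all 3 day 0 libraries for 6 of 9 genes in WT, beside 6.63% of all genes, and for 8 of 9 in KO, beside 8.93%. In WT 4 of 9 genes passed limma as higher (Acta1, Tagln, Tpm1 and Flnc), beside 2.02% of all genes higher and 4.42% in either direction. edgeR called 5 of 9 there, beside 7.03%, and DESeq2 7 of 9, beside 8.15%. In KO 8 of 9 passed limma as higher, beside 2.43% higher and 8.89% in either direction, as they did by edgeR (7.03% of all genes) and DESeq2 (14.5%). Actg2 had a change of -0.27 (SE 0.88) in KO. The counts depended on single libraries through Acta2 and Tpm2. In WT limma counted 6 of 9 without WT day 0 replicate 1 and 5 without WT day 10 replicate 3, and in KO it counted 6 without day 10 replicate 2 or replicate 3. The Acta2 change in WT was 2.61 (SE 0.82) with all libraries and 3.71 without WT day 0 replicate 1. Tpm2 in WT was 1.59 (SE 0.45) with all libraries, 1.88 without that one and 2.06 without WT day 10 replicate 3. In KO the Acta2 change was 4.25 (SE 0.82) with all libraries and 3.83 and 3.89 without day 10 replicates 2 and 3, and that of Tpm2 was 2.42 (SE 0.45), 2.18 and 2.43. Over all genes 417 passed as higher and 494 as lower in WT, and 502 and 1332 in KO. RLE scaling made these 586 and 397 in WT and 784 and 696 in KO, and moved the median of all genes from -0.20 to -0.01 and from -0.68 to -0.41, with 5 and 8 of the 9 genes passing. TMM scaling gave 473 and 337 and 734 and 852, with 4 and 8 of the 9.

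The change in KO minus that in WT was above 0 in 8 of 9 genes. It was 2.44 (SE 0.89) in Myl9, 2.05 (SE 0.80) in Cnn1, 1.63 (SE 1.16) in Acta2, 1.14 (SE 1.15) in Acta1 and 1.11 (SE 0.66) in Flnc. Leaving out 1 library moved these values between 0.54 and 2.41 in Acta2, 0.40 and 1.70 in Acta1, 0.65 and 1.67 in Flnc, 1.55 and 2.34 in Cnn1 and 1.90 and 3.01 in Myl9. Acta2 was 0.93 without the 2 first day 0 libraries. By limma 0 of 9 passed, beside 0% of all genes, and 2 had an unadjusted p under 0.05, beside 8.7% of all genes. edgeR (0% of all genes) and DESeq2 (0.398%) also called 0 of 9. Each gave 3 an unadjusted p under 0.05, beside 1543 of 14884 genes in edgeR and 2762 of 22589 in DESeq2. The median was 1.11, beside -0.36 over all genes. Both changes share their libraries with the comparisons at each day.

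**Figure D2:**
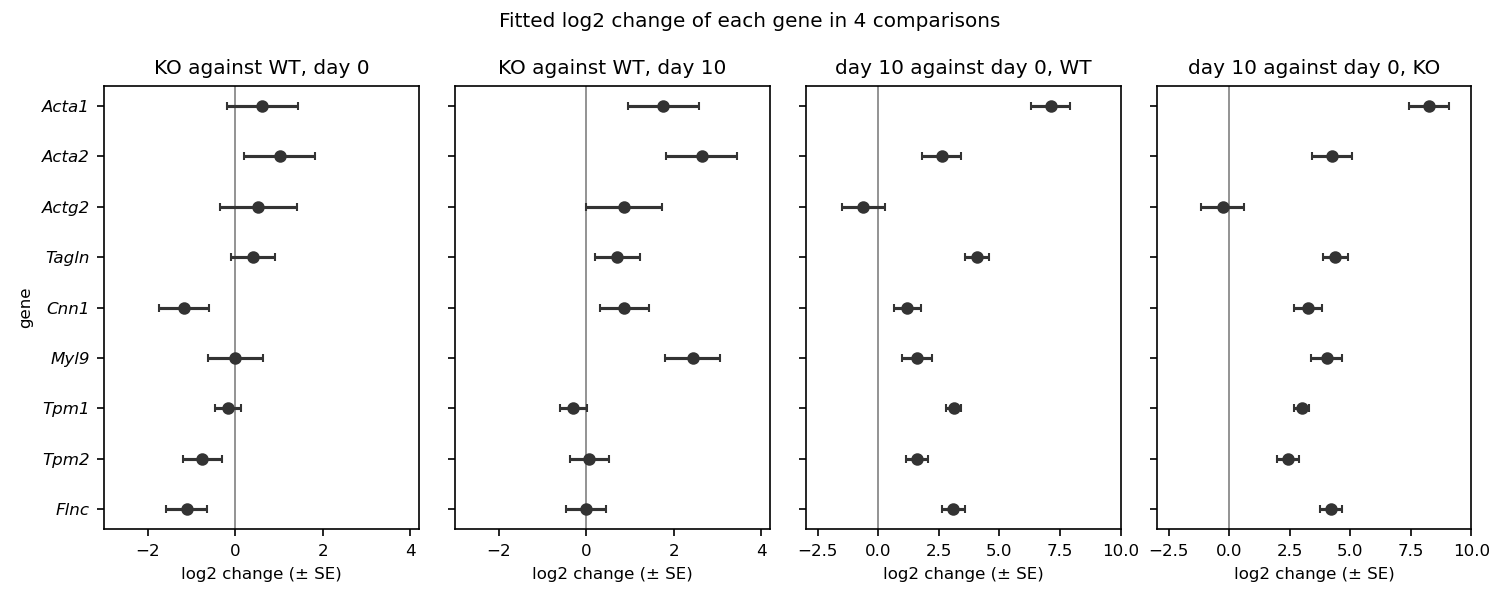
Fitted log2 change (horizontal axis, point with SE as bar) of each gene (vertical axis) in 4 comparisons of 3 against 3 libraries, from limma with all 12 libraries. Between the lines at day 10 Acta2 (2.64), Myl9 (2.43) and Acta1 (1.76) lie farthest from 0, and from day 0 to day 10 all genes but Actg2 lie above 0 in both lines.

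Across the 12 libraries Tagln followed the mean of the other 8 genes most closely (Pearson r = 0.98 on the log2 scale), and Actg2 did not follow it (r = -0.17). The other 7 had r from 0.83 to 0.92. These values are dominated by the step from day 0 to day 10. Over the 6 day 10 libraries alone r was 0.99 in Myl9, 0.97 in Acta2, 0.93 in Tagln and 0.92 in Acta1, but 0.53 in Tpm2, 0.42 in Flnc and -0.05 in Tpm1. The 5 genes outside the 9 whose log2 levels were most like the mean of the 9 over the 12 libraries were Dbn1, which encodes the actin-binding protein drebrin, the connexin gene Gjb2, the LIM domain gene Pdlim7, the zinc finger gene Zfp703 and the focal adhesion gene Zyx. Their r ran from 0.97 to 0.98 with all libraries and without the 2 first day 0 libraries. The libraries share line, day, depth class and background, so r is a description.

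Of 20 other smooth muscle genes 0 passed between the lines on either day. From day 0 to day 10, 5 rose in WT and 6 in KO and none fell, where 2.02% and 2.43% of all genes rose. Calmodulin- and actin-binding caldesmon (Cald1) had 618 to 810.0 scaled reads in WT at day 0 and 2394 to 4355 at day 10, a log2 rise of 2.20 (SE 0.35, limma adjusted p = 0.00252), and rose by 2.02 in KO (adjusted p = 0.00622). The LIM domain genes Pdlim3 and Lpp rose by 2.83 and 2.57 in WT (limma adjusted p = 0.00206 and 0.00294) and Pdlim7 by 1.80 in WT and 2.50 in KO (limma adjusted p = 0.00547 and 0.00095). Csrp2 rose by 1.59 in WT and 1.95 in KO (limma adjusted p = 0.0363 and 0.0145), and Csrp1 by 1.52 in KO (limma adjusted p = 0.0388).

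The genes that define mature smooth muscle were not among them. Myh11, the smooth muscle myosin heavy chain, had 131, 16.7 and 20.5 scaled reads in WT at day 0, with 202, 38.4 and 32.1 in KO. Day 10 gave 9.26, 30.9 and 155 in WT, with 71.4, 101.3 and 48.5 in KO. It was highest in the first library of each line at day 0 and, at day 10, in the WT library with many receptor-gene reads, and its fitted changes from day 0 were 0.01 in WT and 0.16 in KO (SE 1.00 each). Myocd, the myocardin gene that drives the smooth muscle program with SRF, had 58.7, 24.7 and 147 in WT at day 10. The 147 was in the library with many receptor-gene reads. In KO it had 27.4 to 31.7 at day 10. Smtn, Des, Mylk and Lmod1 did not pass in either line, and Kcnmb1 was listed at 0 in 3 of the 6 day 10 libraries. Lmod1 nevertheless lay higher at day 10 in WT without overlap, at 108, 76.2 and 124 against 38.9, 33.4 and 14.2. In KO its days overlapped, as did those of Smtn, Des and Mylk in both lines. Srf had 698, 985 and 362 in WT replicates 2, 1 and 3 and 723 to 1063 in KO at day 10, with log2 changes from day 0 of 0.93 and 0.86 (SE 0.41 each) that did not pass.

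Of 19 nonmuscle counterparts, 5 rose in WT and 9 in KO from day 0 to day 10, beside 2.02% and 2.43% of all genes. None fell and the rest did not pass. Their median changes were 0.76 and 1.00, beside -0.20 and -0.68 over all genes. The calponin gene Cnn2 rose by 3.03 in WT and 3.95 in KO (SE 0.41 each, limma adjusted p = 0.000885 and 0.000149) and Zyx by 2.31 and 2.96 (SE 0.29 each, adjusted p = 0.000492 and 0.000145). The nonmuscle myosin gene Myh9 rose by 1.76 in WT (limma adjusted p = 0.00812). Between the lines 0 of 19 passed on either day.

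Of 22 genes of SRF and TGF-beta control, 4 rose and 1 fell in each line from day 0 to day 10, and 0 passed between the lines. Over all 20624 genes 2.02% rose and 494 fell in WT, and 2.43% rose and 1332 fell in KO. Tgfb2, a TGF-beta ligand, rose by 4.47 in WT and 3.93 in KO (SE 0.78 each, limma adjusted p = 0.00475 and 0.0131). The matricellular protein gene Cyr61 rose by 3.00 and 2.74 (SE 0.61 each, adjusted p = 0.0118 and 0.0207) and the mural cell receptor gene Notch3 by 2.01 and 2.55 (SE 0.30 each, adjusted p = 0.00184 and 0.000452). Tead1, a factor that binds the MCAT core, rose in WT and the ligand gene Tgfb1 in KO. Klf4, a factor of the naive stem cell state that also represses smooth muscle genes, fell by 3.91 in WT and fell by 3.17 in KO (SE 0.82 each, limma adjusted p = 0.0136 and 0.034).

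Markers of other cell types stood as follows beside these genes at day 10. The 16 fibroblast markers summed to 10647, 23773 and 13699 in WT, with 18688, 27476 and 27914 in KO. Most of each sum came from the marker Fn1, with 8405, 16004.5 and 9477 in WT and 14979, 17748 and 17299 in KO. KO replicate 1, the lowest KO library in Acta1, Acta2 and Myl9, was also the lowest KO library in this sum. In WT the order went the other way. WT replicate 1 was the lowest WT library in this sum and the highest WT library in Acta1, Acta2 and Myl9. The lines overlapped in the sum. Col1a1 had 543, 4161 and 1164 in WT, with 1880.3, 5033 and 5302 in KO, and the matrix gene Dcn was listed at 0 in all KO libraries and in WT replicate 1. Pdgfrb rose and Dcn fell in KO, and Thy1 fell in WT. The 24 striated muscle markers summed to 880.1, 1042 and 2961 in WT, against 1313, 1325 and 936 in KO. In WT replicate 3, the library with many receptor-gene reads, Ryr2 held 1569 and Ttn 532 of the sum. The myogenic factor genes Myf5 and Myod1 were at 0 in all 6 libraries. Actc1 and Tnnc1, the slow skeletal and cardiac troponin C gene, rose in KO. The 12 pluripotency markers summed to 7658, 7666 and 3639 in WT, against 14840, 14725 and 11706 in KO, without overlap. From day 0, 11 of 12 fell in WT and 6 of 12 in KO, beside 494 and 1332 of all 20624 genes. Of 10 markers of epithelium and trophoblast 7 rose in each line, beside 2.02% of all genes in WT and 2.43% in KO. The part of these cells in the levels of the 9 genes was not tested.

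**Figure D3:**
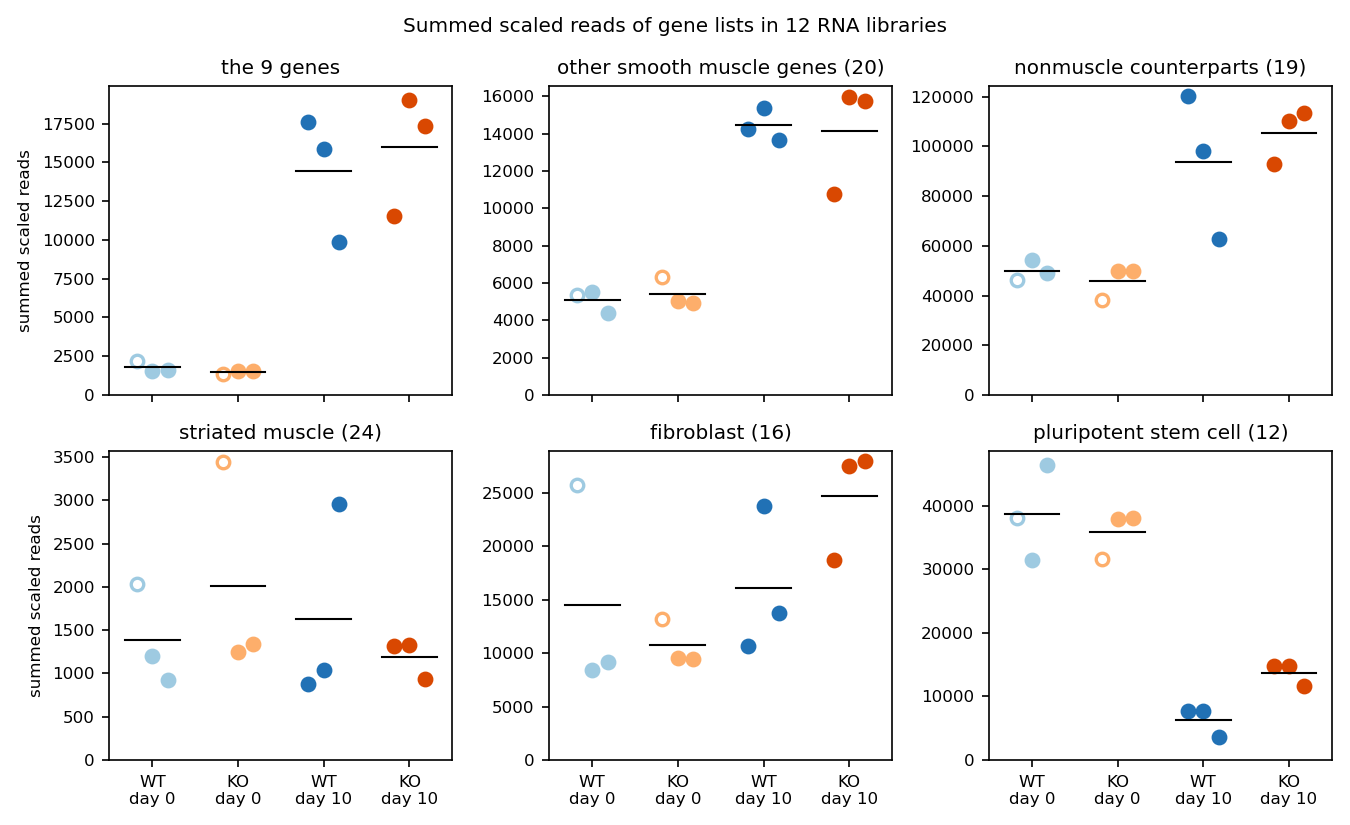
Summed scaled reads (vertical axis, from 0) of the 9 genes and of 5 marker lists in the 3 RNA libraries of each line and day (horizontal axis); points are libraries in the order of replicates 1 to 3, open points are the first day 0 libraries, bars are means. The 9 genes sum to 1382 to 2175 at day 0 and to 9899 to 19049 at day 10, with WT replicate 3 and KO replicate 1 lowest at day 10. Most of each sum comes from Tpm1 and Flnc, with 10162 and 4586 of 17641 in WT day 10 replicate 1.

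The allele of origin, which did not enter the choice of genes, split the 9 into 2 kinds. Over all 12 libraries the mus share of allelic reads was 100% of 54 reads in Acta1, where a count of 0 cas reads allows a share of up to 5.56%. It was 99.8% of 1612 reads in Acta2, 98.5% of 68 in Actg2 and 96.7% of 303 in Myl9. Genes within 5 Mb with at least 50 allelic reads had median shares of 98.9% to 99.2% around these 4, so these neighbourhoods were one-sided too. No comparison of alleles between the lines could be made there, and genes over 95% mus were left out of the tests, a rule set after their values were seen.

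Tpm1, Tagln, Cnn1 and Flnc carried reads of both alleles. The share was 46.8% mus (Wilson 95% interval 45.8 to 47.9) of 9168 reads in Tpm1, 64.1% (59.9 to 68.0) of 540 in Tagln, 37.8% (30.9 to 45.2) of 172 in Cnn1 and 39.0% (37.3 to 40.6) of 3321 in Flnc, beside neighbour medians of 51.6%, 51.3%, 53.0% and 42.4%. The neighbours of Flnc were mixed: 35 of 54 lay below 50% and the upper quartile was 98.0%, while the 21 within 1 Mb ranged from 28.3% to 52.6%. Tpm2 lay below most of its neighbours. Its share was 28% (23.3 to 33.2) of 311 reads, while the 88 neighbours had a median of 98.5% and 3 of them lay below 50%. Within 1 Mb the 27 neighbours ranged from 17.9% to 100%, with a median of 86.3%. Intervals cover counting error only.

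By library, Flnc had 75%, 33.3% and 48.3% mus in WT at day 0, with 78.0%, 54.0% and 51.6% in KO. The first library of each line had the highest share. Day 10 shares were 35.9%, 32.2% and 34.2% in WT, with 45.9%, 35.2% and 33.8% in KO. Tpm2 gave 15 mus and 0 cas reads in KO day 0 replicate 1, which allows a cas share of up to 20%, against 3.85% and 9.09% mus in the other KO libraries of day 0. Cnn1 had few allelic reads and a wide spread. In the libraries with at least 10 its share was 12.8% in WT at day 0, 51.9% and 40% in KO at day 0, 35.3% and 16.7% in WT at day 10 and 31.8% and 73.7% in KO at day 10, on 10 to 39 reads each. These libraries were too few for the comparison between the lines.

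Allele shares were compared between the lines where all 6 libraries of a day had at least 10 allelic reads, which gave 6 comparisons. Tagln at day 10 had 66.3% ± 2.33 mus in WT and 61.1% ± 5.18 in KO (SD, n = 3 each; exact permutation test, 2-sided, p = 0.3, adjusted p = 0.75). Tpm2 at day 10 had 35.9% ± 10.7 in WT and 18.3% ± 16.1 in KO (exact p = 0.3, adjusted p = 0.75), with 0 of 26 mus reads in KO replicate 2, which allows up to 11.5%. Tpm1 had 48.9% ± 1.05 and 49.3% ± 1.70 at day 10 and 48.1% ± 2.26 and 46.4% ± 8.35 at day 0, and Flnc had 34.1% ± 1.84 and 38.3% ± 6.61 at day 10 (exact p of 0.7, 0.8 and 0.5). Flnc at day 0, at 52.2% ± 21.1 and 61.2% ± 14.6, had an exact p of 0.5. None of the 6 passed the test, and 3 against 3 libraries cannot give a p below 0.1.

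**Figure D4:**
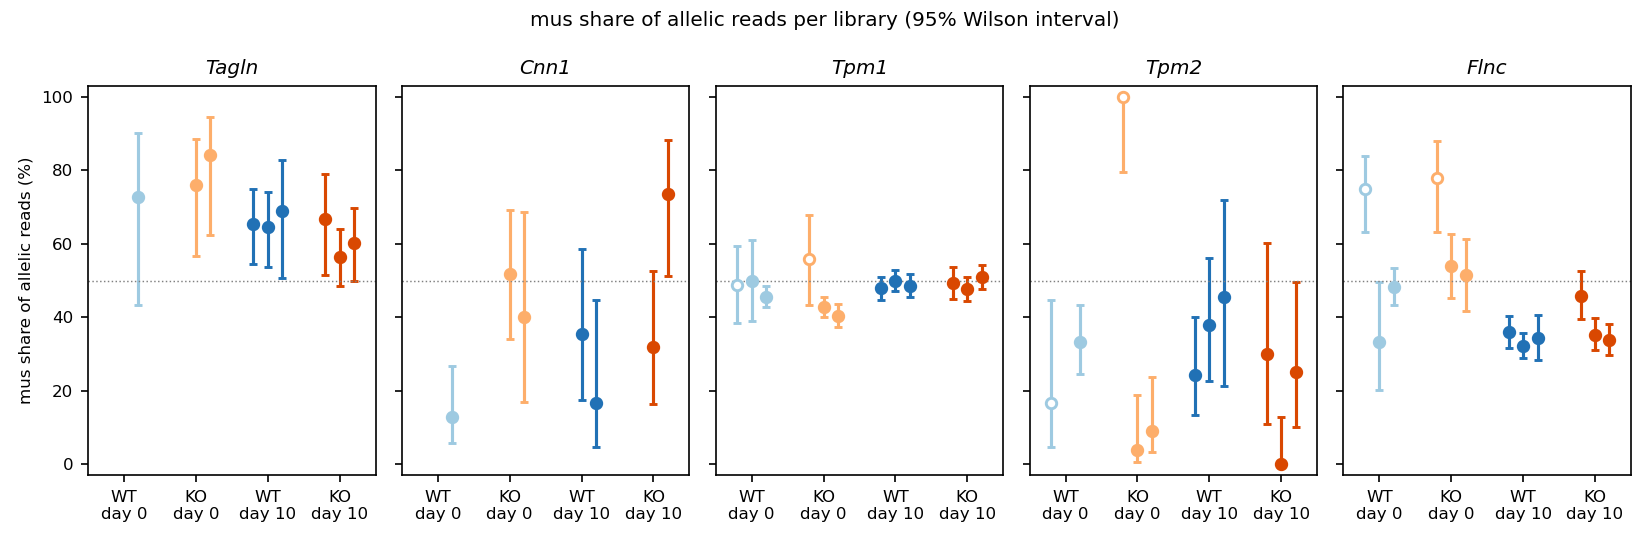
Percent of allelic reads from the mus allele (vertical axis) in each RNA library with at least 10 allelic reads, by line and day (horizontal axis), for the 5 genes with reads of both alleles; bars are 95% Wilson intervals, open points are the first day 0 libraries and the dotted line marks 50%. Tpm1 lies between 40.4% and 55.9% in all libraries, and its intervals in the 3 deep day 0 libraries lie below 50%. Tpm2 lies below 50% in all but KO day 0 replicate 1, and the first day 0 libraries of Flnc stand at 75% and 78.0%.

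H3K9ac peaks at the starts were more common at day 10 than at day 0 among the 9 genes, in 1 sample per line and day, so without a test. A peak overlapping the 1 kb either side of the start was listed at day 0 for 3 of 9 genes in WT (Flnc, Tagln and Tpm1), beside 49.7% of all genes, and for Tpm1 alone in KO, beside 40%. At day 10 it was listed for 7 in WT, all but Acta2 and Actg2, beside 50.8%, and for 6 in KO, those of WT without Cnn1, beside 52.1%. Acta1, Cnn1, Myl9 and Tpm2 had a listed peak in WT at day 10 and none at day 0, a pattern found in 8.61% of all genes in WT. The -log10 q of these day 10 peaks was 0.38, 0.17, 0.86 and 1.93. In KO the genes with this pattern were Acta1, Flnc, Myl9, Tagln and Tpm2, beside 15.3% of all genes. Their -log10 q at day 10 was 0, 1.89, 0.89, 0.73 and 1.22. Within 2 kb of the start, Acta1 and Cnn1 also had a listed peak in WT at day 0, but not in KO. Whether acetylation was gained at these genes was not tested.

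The peak of Tpm1 was among the widest and strongest of the 9, with the fold enrichment that the authors' peak caller gave at 3.64 and 2.86 at day 0 and 4.58 and 4.57 at day 10 in WT and KO. At day 10 it spanned 4349 bases in WT and 4305 in KO. Flnc had 4.45 over 4616 bases in WT and 3.45 over 3826 bases in KO. Tpm2 had 3.61 and 3.20, Tagln 3.25 and 2.91 and Myl9 3.01 and 3.01 in WT and KO at day 10. The Acta1 peak in WT reached from 806 bases before the start to 161 after it at 2.62, whereas in KO, the line with more Acta1 RNA, it lay wholly upstream, from 1898 to 954 bases before the start, at 2.23, among the lowest 1.09% of that sample's peaks by fold.

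Acta2 had no peak at its start in any of the 4 samples, while its RNA mean was 7.43 times as high in KO as in WT at day 10, and Actg2 had none either. The lists hold peaks from a -log10 p of about 2.0, so weaker signal cannot be seen. Peak strength at the 9 genes was modest. The highest -log10 q among them was 3.72, in Tpm1 in KO at day 10, and at a -log10 q of at least 5 no gene of the 9 kept a peak, while 9.64% and 10.6% of all genes did in WT and KO at day 10. At day 0 the WT and KO lists held 63050 and 37704 peaks and at day 10 they held 37310 and 51501, so counts of peaks move with the length of the list.

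**Figure D5:**
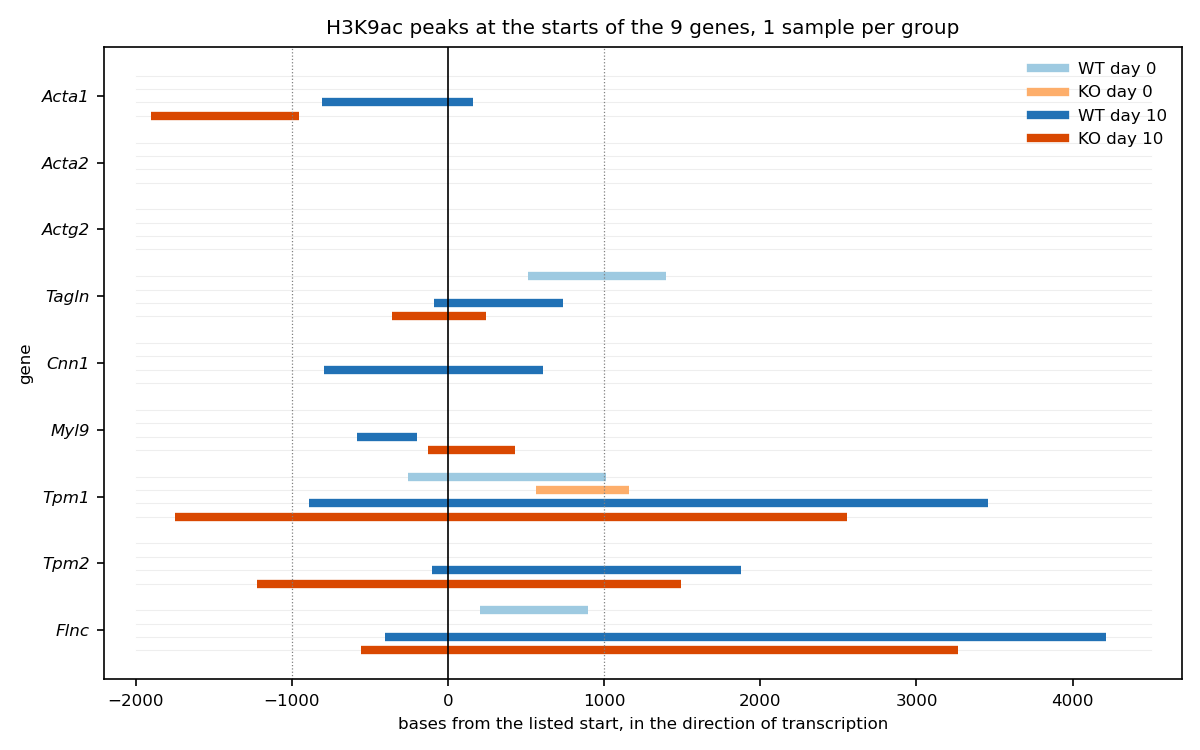
H3K9ac peaks that overlap 1 kb either side of the start of each gene (dotted lines), drawn from first to last base relative to the listed start (horizontal axis, in bases, in the direction of transcription) for 1 sample per line and day (colours). Tpm1 has a peak in all 4 samples, and Acta2 and Actg2 have none.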

How the data were processed

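The members and gene lists were chosen with earlier results of these data known, among them an alternative that leaves out both first day 0 libraries. Per the submitters' processing notes RNA reads were handled with TopHat and HOMER and ChIP reads with Novoalign and MACS2 on mm9; versions, strandedness, how multiply mapped reads were placed and which control the peak calls used are not given in the sources used here. The gene table deposited by the authors holds a signal, reads per gene scaled to a common total over a length that equals the genomic span in 99.3% of genes; its log2 ratios and p-values, deposited by the authors, were not used. A second deposited table gives, for each gene, counts of reads assigned to mus or to cas. Per the file headers the deposited peak lists give a fold enrichment (ratio), a -log10 p-value, a -log10 q-value and a score.

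The design allowed for counts, but the table holds scaled signal. Values of each library are whole multiples of 1 step (100% of values within 0.006 of a whole read), so whole reads were recovered. The test was limma 3.58.1 (trend, robust; R 4.3.3) on log2(value + 1), fitted to all 12 libraries for the 20624 genes with a value over 1 in 3 or more of them; the threshold was a Benjamini-Hochberg adjusted p of 0.05. Recovered reads were tested with edgeR 4.0.16 (quasi-likelihood, TMM) and DESeq2 1.42.0. The fit was also run on simulated reads, only as a check of the code. Those had the same dispersion for all genes and did not model the ribosomal share, receptor-gene reads or fibroblast genes. That check therefore says nothing about how the fit behaves on these libraries. Errors are SD for means and moderated SE for log2 changes. KO day 0 replicates 2 and 3 were the most alike pair (log2 r = 0.993) but differed beyond sampling noise (chi-square of 2.65 per gene) and count as 2 libraries.

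Allele shares were compared by exact permutation over libraries, peaks by overlap with 1 kb either side of the start, and promoter motifs by letters on both strands, using Python 3.11.15 and its packages scipy 1.17.1, numpy 2.4.6, pandas 2.3.3 and, for figures, matplotlib 3.10.9. Named are all 9 genes, up to 4 passing genes per list and comparison by size of change, Myh11, Myocd, Srf, Actc1, Actb and Col1a1, Ehmt2, and the 5 most alike genes with a mean above 50; not all are printed. The other lists held 20 smooth muscle, 19 nonmuscle, 22 SRF and TGF-beta, 24 striated muscle, 16 fibroblast, 12 pluripotency, 10 epithelium and trophoblast and 9 endothelium and mural cell genes; of the last, Notch3 rose in both lines, Pdgfrb rose in KO, and Pecam1 fell in both. Alternatives were scaling, pseudocount, filter, tool, samples in the fit, a replicate block, each library left out, read minimums and peak settings; TMM scaling and depth classes were added after seeing the data. The 4 H3K9me2 samples were not used, and 2 inputs whose labels name different days were left unassigned.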

Additional observations from a re-analysis of the deposited data

How the results depend on the processing

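Depth limits Acta1, Cnn1, Actg2 and Myl9 at day 0, which rest on few reads, and 3 libraries a group limit every comparison between the lines. Myl9 had 10, 4 and 45 recovered reads in WT at day 0, with 6, 66 and 46 in KO, and 10 in WT day 10 replicate 3. WT day 0 replicate 2 held only 4 reads of Acta2 and 7 of Tagln. Setting the settings side by side, the count of the 9 genes that pass was 2 between the lines at day 10 by DESeq2 (0 by limma), 7 by DESeq2 in WT from day 0 to day 10 (4 by limma), and 5 in KO with the shallow libraries only (8 with all). Leaving out 1 library gave 4 to 6 in WT and 6 to 8 in KO. For the 20 other smooth muscle genes the count in WT (5) was 9 by DESeq2 and 8 both without the 2 first day 0 libraries and with deep libraries only at day 0. In KO (6) it was 2 with shallow libraries only and 1 to 7 on leaving out 1 library, at 3 without KO day 0 replicate 2 or 3, 2 without KO day 10 replicate 2 and 1 without replicate 3.

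Over all genes, DESeq2 called 16 and 548 between the lines at day 0 and day 10 and 90 for the difference of changes, where limma called 0; at day 10 limma called 111 with a pseudocount of 0.1 and 4 with only the compared groups. In WT (911) the count was 1840 by DESeq2, 396 with only the compared groups, 2127 without both first day 0 libraries, 561 with shallow libraries only, 3147 with deep libraries at day 0, and 466 (without WT day 0 replicate 3; 467 without WT day 10 replicate 2) to 1047 on leaving out 1. In KO (1834) it was 1054 with a pseudocount of 5, 1046 by edgeR, 3276 by DESeq2, 4105 with only the compared groups, 3528 without both first day 0 libraries, 124 with shallow libraries only, 4323 with deep libraries at day 0, and 199 to 2864 on leaving out 1 (2864 without KO day 0 replicate 1, and 300, 285, 502, 298 and 199 without day 0 replicates 2 and 3 and day 10 replicates 1, 2 and 3). The causes were not tested.

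Fitted log2 values that changed sign, none of which had passed, were these. Between the lines at day 0, Acta1 was 0.00 with shallow libraries only, all at 0, and -0.19 with deep ones. Myl9 was 0.0019 with a pseudocount of 0.1, 0.44 without both first libraries, 0.62 with deep ones and -0.30 to 0.40 on leaving out 1. Tpm1 was 0.20, 0.13 and -0.36 to 0.19 in the last 3 of these settings, and Actg2 was -0.20 to 1.23 on leaving out 1. At day 10, Flnc was 0.073 with RLE, 0.13 with TMM scaling and -0.46 to 0.24 on leaving out 1, and Tpm2 was -0.39 to 0.43. From day 0 to day 10, Actg2 in WT was 0.084 without both first libraries, 0.80 with deep ones and -1.33 to 0.084 on leaving out 1. In KO it was 0.0065 with RLE, 0.025 with TMM scaling, 0.45 without both first libraries and with deep ones, and -0.78 to 0.45. For the difference of changes, Actg2 was -0.39 with shallow and -0.35 with deep libraries and -0.36 to 1.07 on leaving out 1. Tagln was -0.21 without both first libraries, -0.24 with deep ones and -0.35 to 0.65. Tpm1 was 0.044 with TMM scaling, 0.58 with shallow libraries and -0.49 to 0.068.

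Allele differences (KO minus WT, percentage points) on leaving out 1 library were -6.52 to 1.24 in Tpm1 at day 0, -0.44 to 1.26 in Tpm1 at day 10 and -0.45 to 20.4 in Flnc at day 0. Of the 9 promoters, 0 had a peak in KO at day 0 within 500 bases, 5 in WT at day 0 within 2 kb, and 0 in each of the 4 samples at a -log10 q of at least 5.

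The replicate numbers did not pair the libraries: 5 of 18 same-number correlations of deviations were over 0.1 (-0.578 to 0.579), and in 6 of the 18 the best partner had the same number, while the labels number each RNA library as a donor of its own. With replicate number as a block, 0, 0, 4, 8 and 0 of the 9 genes passed in the 5 comparisons and 850 and 1612 of all genes from day 0 to day 10 in WT and KO, so the block changed no call of the 9.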
